A study of Mus musculus with 45 samples.

Results

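Embryoid bodies (EBs) formed in serum were compared with cells differentiated in N2B27 with Fgf2 and ActivinA (FA) at days 1, 1.5 and 2. The comparison took 12 of the 45 RNA-seq libraries of the series, the 6 EB and the 6 FA libraries of these days, which were chosen by condition, starting medium and day with no use of their measured values. Each EB library was set beside the FA library of the same starting medium and day, giving 6 pairs. All cells were E14tg2a (XY1), a male wild-type mouse ESC line of 129/Ola background, and a single line stands for each group. Before differentiation the cells were kept in 2iL, which is N2B27 with the MEK inhibitor PD0325901, the GSK3 inhibitor CHIR99021 and LIF, or in SL, which is GMEM with fetal bovine serum and LIF. EBs were grown in suspension in medium with serum and without LIF. FA cells, named EpiSC in the sample labels, were grown adherent on gelatin without serum. N2B27 alone, named Neural in the labels, gave 6 further libraries of the same days whose values are shown beside the others without a test.

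EBs and FA cells differ in serum, basal medium, growth factors, attachment and plating density all together, so these cannot be told apart here. Cells from SL keep serum in EBs and lose it in FA, whereas cells from 2iL gain serum in EBs and stay in N2B27 in FA. The 3 days of a condition and medium are a single time course, and nothing in the sources used here says that they came from separate cultures. The p-values of the paired comparison measure how far the EB and FA difference varies over the 6 pairs, which span 3 days and both starting media. They therefore do not measure the spread between separate cultures, and the spread they rest on may be partly technical. In bulk RNA, fewer cells of a type and less RNA per cell cannot be told apart.

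On exit from naive pluripotency, ESCs lose naive factors and pass through a formative state marked by Otx2, Fgf5 and the de novo methyltransferase Dnmt3b before they respond to lineage signals. Activin and Nodal act through Smad2 and Smad3, BMPs act through Smad1 and Smad5 and switch on Id genes, and retinoic acid acts through nuclear receptors bound to direct repeats in promoters. Cells make cholesterol and fatty acids through enzymes whose genes are driven by the SREBP factors, and this programme is held down when cells hold enough sterol.

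Between 15101710 and 39253633 reads were counted on genes in the 12 libraries. The 3 EB libraries from 2iL and the EB library from SL at day 2 held 33120740 to 39253633 reads, while the other 8 held 15101710 to 18790162, so depth moves with condition in the pairs from 2iL and at day 2 from SL. A count of 3 reads is 0.199 CPM (counts scaled to library size with TMM factors) in the shallowest library. Lower values carry a large counting error. Pou5f1, the core pluripotency factor, ranged over 473 to 686 CPM in EBs and 445 to 647 CPM in FA cells, and the streak marker T, which did not pass the filter on low counts, reached 2.06 CPM in FA cells. The FA time course from 2iL stood apart from the other 2iL time courses at day 0, before any change of culture. There 6 of 8743 genes with at least 10 CPM were over 4-fold below both other 2iL day 0 libraries. This held for 0 genes in the day 0 library of either other course. Of the 6, AC156953.1 and Rn7s6 may count the same reads. Genes over 4-fold above both others numbered 2 in the EB day 0 library and 0 in the FA and N2B27 day 0 libraries. With genes over 1.5-fold apart in the FA day 0 library left out, 3816 of 13089 genes were called between EBs and FA cells. Of these, 1977 were higher and 1839 lower in EBs. The part of that library's difference in the results was not tested beyond this fit. Counts for pairs from SL alone are given beside those of most lists.

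Which genes differ between the serum and the FA condition was asked over all genes. Of 13851 genes tested with edgeR, 3899 (28.1%) differed at an adjusted p of 0.05, with 2117 (15.3%) higher and 1782 (12.9%) lower in EBs. Of these, 381 were at least 2-fold higher and 274 at least 2-fold lower, and 3270 had the same direction in all 6 pairs. For 640 genes (4.62%) the 6 EB and the 6 FA libraries did not overlap, with EBs above FA cells for 2.35% and below for 2.27% of genes. The median log2 difference of all genes tested was 0.01. In pairs from SL alone 2906 of 14023 genes (20.7%) differed, with 11.1% higher and 9.62% lower. Without the block for medium and day 994 genes (7.18%) differed, with 3.93% higher and 3.25% lower. With the days summed per time course 627 of 16117 genes differed, with 357 higher and 270 lower. Counts of list members given below for any of these fits are to be read beside the share of all genes in the same fit.

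Enpp2 (ENSMUSG00000022425, GRCm38 chromosome 15, 54838901 to 54952892, negative strand), which encodes autotaxin, the secreted enzyme that makes lysophosphatidic acid, had the largest difference among the genes higher in EBs that the rule on named genes took. It stood at 79.4, 204 and 223 CPM at days 1, 1.5 and 2 in EBs from 2iL and at 30.6, 68.7 and 122 CPM in EBs from SL. In FA cells it stood at 6.92, 7.66 and 4.81 CPM from 2iL and at 1.93, 4.0 and 4.59 CPM from SL. Every EB library was above every FA library, with a log2 difference of 4.48 ± 0.24 (SE, adjusted p = 4.71e-05). Enpp2 was at 2.12 to 9.09 CPM in N2B27 and at 0 to 0.513 CPM in the 3 day 0 libraries in 2iL and 1.06 CPM in that in SL, so EBs held the highest levels among the libraries of days 0 to 2 from these conditions. Coch, which encodes the secreted protein cochlin, ranged over 7.62 to 33.9 CPM (median 16.7) in EBs and 1.27 to 4.06 CPM (median 2.81) in FA cells, without overlap (2.76 ± 0.33 SE, adjusted p = 9.02e-04). Slc9a7, an organellar sodium and proton exchanger, differed by 3.04 ± 0.19 and Slc23a1, a vitamin C transporter, by 2.14 ± 0.21, both without overlap. Esrp1, a splicing regulator of epithelial cells, was at 33.7, 62.2 and 80.1 CPM at the 3 days in EBs from SL and at 10.9, 22.5 and 32.1 CPM in FA cells from SL, and its log2 difference was 2.08 ± 0.25 (SE, adjusted p = 0.00104). Cxcl12, a chemokine, stood at 4.11, 24.8 and 38.4 CPM in EBs from 2iL and at 1.02, 3.61 and 4.87 CPM in FA cells from 2iL, and differed by 2.14 ± 0.28 (SE, adjusted p = 0.00148). The BMP targets Id1 and Id3 were also among the 12 largest, as were Lad1, a basement membrane anchor protein (2.48 ± 0.36), Kctd12b (3.07 ± 0.28), Plcxd1 (2.29 ± 0.3) and Pxdc1 (2.1 ± 0.2). Id3, Cxcl12, Lad1, Kctd12b and Pxdc1 overlapped between the groups.

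Among the genes lower in EBs, the 12 largest differences included 2 retinoic acid genes described below, Stra8 and Dhrs3, and the neural factor Sox1. Epha7, a receptor of ephrins, ranged over 3.36 to 7.06 CPM (median 4.19) in EBs and 18.2 to 43.6 CPM (median 25) in FA cells, without overlap (-2.57 ± 0.18 SE, adjusted p = 1.46e-04). Cntfr, the receptor subunit for ciliary neurotrophic factor, stood at 26.2, 15.7 and 7.83 CPM in EBs from 2iL and at 42.1, 70.4 and 60.4 CPM in FA cells from 2iL. Its log2 difference was -2.38 ± 0.36 (SE, adjusted p = 0.00255). H2afy2, the histone variant macroH2A2, stood at 5.88, 6.36 and 9.06 CPM in EBs from 2iL and at 1.9, 3.12 and 3.55 CPM in EBs from SL, against 19.5, 30.1 and 41.4 CPM and 9.85, 13.7 and 25.6 CPM in FA cells (-2.24 ± 0.14 SE, adjusted p = 1.05e-04). No EB library reached the lowest FA library. Gfra1, a receptor subunit for glial cell line-derived neurotrophic factor, differed by -1.94 ± 0.22, Nt5e, the ectonucleotidase CD73, by -1.98 ± 0.35 and Col6a5, a collagen chain, by -2.54 ± 0.52. Clgn, a testis chaperone of the endoplasmic reticulum, differed by -2.85 ± 0.35. Halr1, a long non-coding RNA of the Hoxa region, differed by -1.99 ± 0.4 and the tetraspanin gene Cd37 by -2.81 ± 0.5. Halr1, Cd37 and Gfra1 overlapped between the groups.

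**Figure D1:**
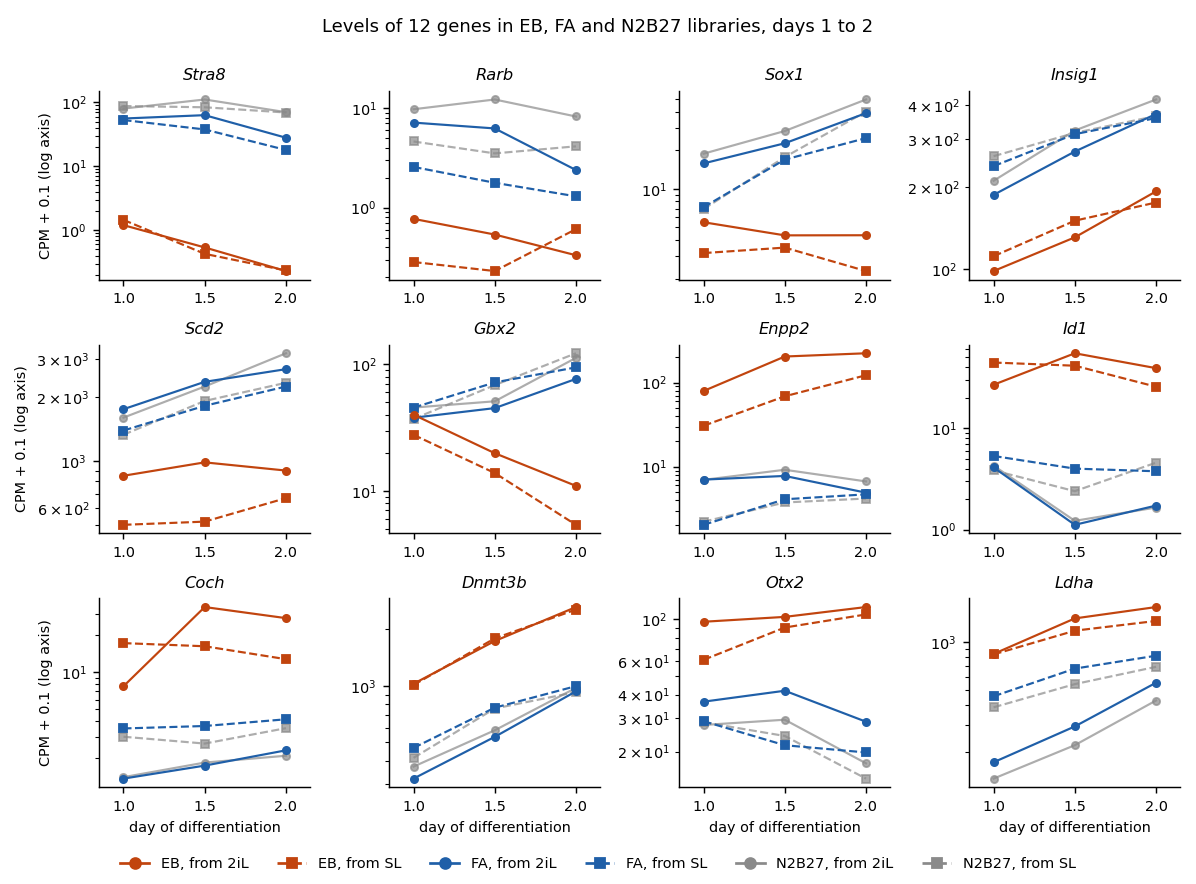
CPM plus 0.1 on a log axis against day for 12 genes, with EB libraries in orange, FA libraries in blue and N2B27 libraries in grey, circles and solid lines for cells from 2iL and squares and dashed lines for cells from SL, each point being 1 library. Stra8 lay between 0.129 and 1.35 CPM in EBs and between 17.9 and 63 CPM in FA cells.

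Retinoic acid genes were lower in EBs than in FA cells. Of 17 genes of this pathway 15 were tested, and 11 were lower and 1 higher in EBs, where 12.9% and 15.3% of all genes tested were called lower and higher. The list had a median log2 difference of -0.9 against 0.01 over all genes tested. Stra8 (ENSMUSG00000029848, GRCm38 chromosome 6, 34920163 to 34939344, positive strand), a germ cell gene that retinoic acid induces and that is needed for meiosis, stood at 1.1, 0.436 and 0.129 CPM at days 1, 1.5 and 2 in EBs from 2iL and at 1.35, 0.325 and 0.133 CPM in EBs from SL. FA cells held 55.8, 63 and 27.9 CPM from 2iL and 52.8, 37.6 and 17.9 CPM from SL. The groups were far apart at each day, with a log2 difference of -6.37 ± 0.29 (SE, adjusted p = 2.12e-05), the largest of any gene that the rule names. N2B27 libraries held 69.3 to 111 CPM, and the gene was at 19.5 to 24.1 CPM in the 3 day 0 libraries in 2iL and 11.8 CPM in that in SL. EB levels were thus below those of every day 0 library.

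The receptor gene Rarb, itself a target of retinoic acid, ranged over 0.130 to 0.670 CPM (median 0.334) in EBs and 1.2 to 7.05 CPM (median 2.37) in FA cells, without overlap (-3.11 ± 0.35 SE, adjusted p = 7.64e-04). Hoxb1, an early Hox gene, was low in EBs, at 0.0914 to 0.842 CPM, and stood at 0.190, 3.1 and 9.26 CPM in FA cells from 2iL and at 1.11, 7.18 and 7.85 CPM in FA cells from SL (-3.67 ± 0.57 SE, adjusted p = 0.00287). Genes that handle retinoids were next. Dhrs3, which reduces retinaldehyde back to retinol, ranged over 0.856 to 4.24 CPM (median 2.9) in EBs and 6.92 to 14.7 CPM (median 11.1) in FA cells (-1.94 ± 0.18 SE, adjusted p = 4.09e-04). Stra6, the cell surface receptor that takes up retinol, differed by -2.26 ± 0.4 (SE, adjusted p = 0.00478), and pairs from SL alone gave -1.27 ± 0.44 (adjusted p = 0.0821). The retinoid-binding protein Crabp1 differed by -0.79 ± 0.12 and Tgm2, a transglutaminase, by -0.9 ± 0.19. The receptors Rara and Rarg differed less, by -0.3 ± 0.09 and -0.28 ± 0.08. Rdh10, which makes retinaldehyde from retinol, was the 1 member higher in EBs, at 7.55 to 21.6 CPM against 6.47 to 11.2 CPM (0.62 ± 0.11 SE, adjusted p = 0.00529). Cyp26a1, the enzyme that clears retinoic acid, did not pass the test (-0.65 ± 0.38 SE, adjusted p = 0.232). In SL pairs alone 8 members were lower and 1 higher, and without the medium-day block 8 passed the test, each lower. With the days summed 5 passed, each lower.

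Retinoic acid receptors bind direct repeats of a short half-site, and the promoters of list members were read for repeats spaced by 5 bases (the DR5 type) on both strands. RefSeq promoter windows on GRCm38.p6, from 250 bases before to 50 bases after the start of the gene, matched 12 of the 17 members by symbol. Windows of Rarb and of Cyp26a1 held such a repeat, which was 2 of 12 members, and 31 of 27025 genes (0.115%) with a window held it. Repeats spaced by 2 bases were in none of these 12 and in 84 of all genes (0.311%). Both spacings were chosen after the list's values were known, and a match is a description of the letters alone. The windows are shown because the 2 genes share the repeat and not the difference, Rarb being called and Cyp26a1 not. They run 5′ to 3′ on the strand of the gene, with the repeat in capitals, which lies 53 to 37 bases before the start in Rarb (chr14:16575427-16575726, negative strand) and, on the other strand, 32 to 16 bases before it in Cyp26a1 (chr19:37697558-37697857, positive strand).
Rarb: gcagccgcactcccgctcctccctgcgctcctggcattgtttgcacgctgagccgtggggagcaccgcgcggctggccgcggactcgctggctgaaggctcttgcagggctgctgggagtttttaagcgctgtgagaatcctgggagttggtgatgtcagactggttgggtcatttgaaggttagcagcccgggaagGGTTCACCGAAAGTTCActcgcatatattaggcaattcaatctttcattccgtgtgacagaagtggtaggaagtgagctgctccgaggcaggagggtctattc
Cyp26a1: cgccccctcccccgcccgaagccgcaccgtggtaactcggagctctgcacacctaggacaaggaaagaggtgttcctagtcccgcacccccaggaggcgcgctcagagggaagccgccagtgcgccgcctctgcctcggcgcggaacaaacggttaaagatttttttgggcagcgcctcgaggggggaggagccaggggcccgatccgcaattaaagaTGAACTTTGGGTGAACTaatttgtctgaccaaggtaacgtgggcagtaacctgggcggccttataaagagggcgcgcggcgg

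**Figure D2:**
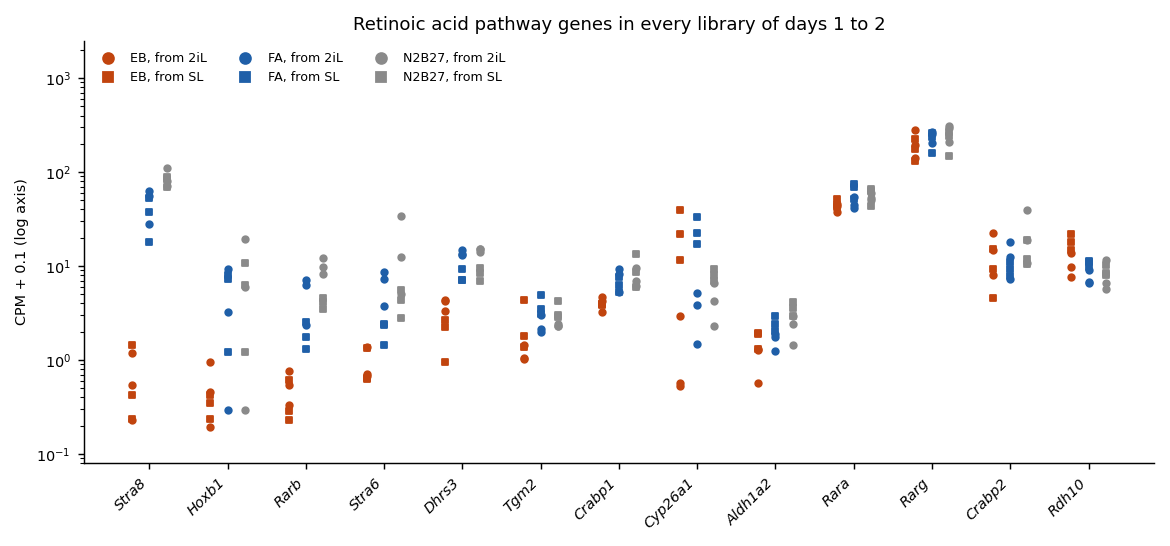
CPM plus 0.1 on a log axis for 13 of the 15 tested genes of the retinoic acid list, ordered by their log2 difference, with 6 EB (orange), 6 FA (blue) and 6 N2B27 (grey) libraries of days 1 to 2 per gene, circles from 2iL and squares from SL. From Stra8 to Dhrs3 most EB points lie under the FA points, whereas for Rdh10 they lie level with or above them.

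Genes of cholesterol synthesis and uptake were mostly lower in EBs. Of 28 members 27 were tested, and 24 were lower and 1 higher in EBs, beside 12.9% and 15.3% of all genes tested. The median log2 difference of the list was -0.61. The summed level of the list was 2017 to 3274 CPM in EBs and 3254 to 4706 CPM in FA cells. Insig1, the sterol sensor partner that holds SREBP in the endoplasmic reticulum, stood at 98.3, 131 and 193 CPM at the 3 days in EBs from 2iL and at 111, 150.5 and 176 CPM in EBs from SL. FA cells held 187, 270.1 and 371 CPM from 2iL and 239, 313 and 358 CPM from SL. The values were higher at later days in each course, so the groups overlapped, but the EB library of each pair was the lower (-1.01 ± 0.04 SE, adjusted p = 2.12e-05).

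Enzymes along the pathway were lower in EBs. Hmgcs1, the first committed synthase, was at 256 to 501 CPM (median 346) in EBs and 458 to 639.6 CPM (median 538) in FA cells (-0.66 ± 0.08 SE, adjusted p = 0.00102). Further along, Fdps, which makes farnesyl pyrophosphate, differed by -0.91 ± 0.08, Sqle, squalene epoxidase, by -0.45 ± 0.07, Lss, lanosterol synthase, by -0.76 ± 0.05 and Dhcr7, a reductase of the last steps, by -0.76 ± 0.1. Srebf2, the SREBP gene of this programme, differed by -0.61 ± 0.07. Abcg1, a transporter that exports cholesterol, was higher in EBs, at 6.61, 17.6 and 33.9 CPM in EBs from SL and 6.1, 8.97 and 9.38 CPM in FA cells from SL (0.81 ± 0.25 SE, adjusted p = 0.0393). Pairs from SL alone gave 23 lower and 1 higher. Without the medium-day block 15 passed the test, each lower, and with the days summed 12 passed, each lower.

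SREBP binds the sterol regulatory element, searched for as TCACNCCAC on both strands. Of the 19 list members with a promoter window, 1 held this motif, which was Hmgcs1, against 388 of 27025 genes (1.44%). Among the 13 genes of fatty acid synthesis with a window, 0 held it. The window of Hmgcs1 (chr13:119690101-119690400 on GRCm38.p6, positive strand) is shown as that of the list's early synthase, with the element in capitals 137 to 129 bases before the start.
Hmgcs1: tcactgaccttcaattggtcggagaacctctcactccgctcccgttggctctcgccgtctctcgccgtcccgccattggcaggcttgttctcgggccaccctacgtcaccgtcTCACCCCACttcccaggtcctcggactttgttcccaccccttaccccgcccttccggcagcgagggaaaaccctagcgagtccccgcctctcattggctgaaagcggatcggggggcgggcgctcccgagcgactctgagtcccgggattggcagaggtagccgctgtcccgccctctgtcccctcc

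Of 15 tested genes of fatty acid synthesis 12 passed the test, each lower in EBs, where 12.9% of all genes tested were called lower. The list median was -0.59. Scd2, a stearoyl-CoA desaturase, stood at 851, 983 and 900.0 CPM in EBs from 2iL and at 500.4, 518 and 668 CPM in EBs from SL, and FA cells held 1748, 2349 and 2694 CPM and 1388, 1813 and 2233 CPM. Its log2 difference was -1.47 ± 0.1 (SE, adjusted p = 1.19e-04), and that of its relative Scd1 was -1.27 ± 0.06 (SE, adjusted p = 3.10e-05), both without overlap. Fasn, fatty acid synthase, differed by -0.45 ± 0.07, Acaca, acetyl-CoA carboxylase, by -0.55 ± 0.05, Acss2, which makes acetyl-CoA from acetate, by -1.08 ± 0.13 and Srebf1 by -0.69 ± 0.06. Pairs from SL alone also gave 12 lower, and the days summed gave 6 lower. N2B27 libraries had summed levels of 3543 to 5055 CPM for cholesterol genes and 4591 to 7218 CPM for fatty acid genes. For the latter EBs had 2663 to 3589 CPM and FA cells 4655 to 6571 CPM.

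**Figure D3:**
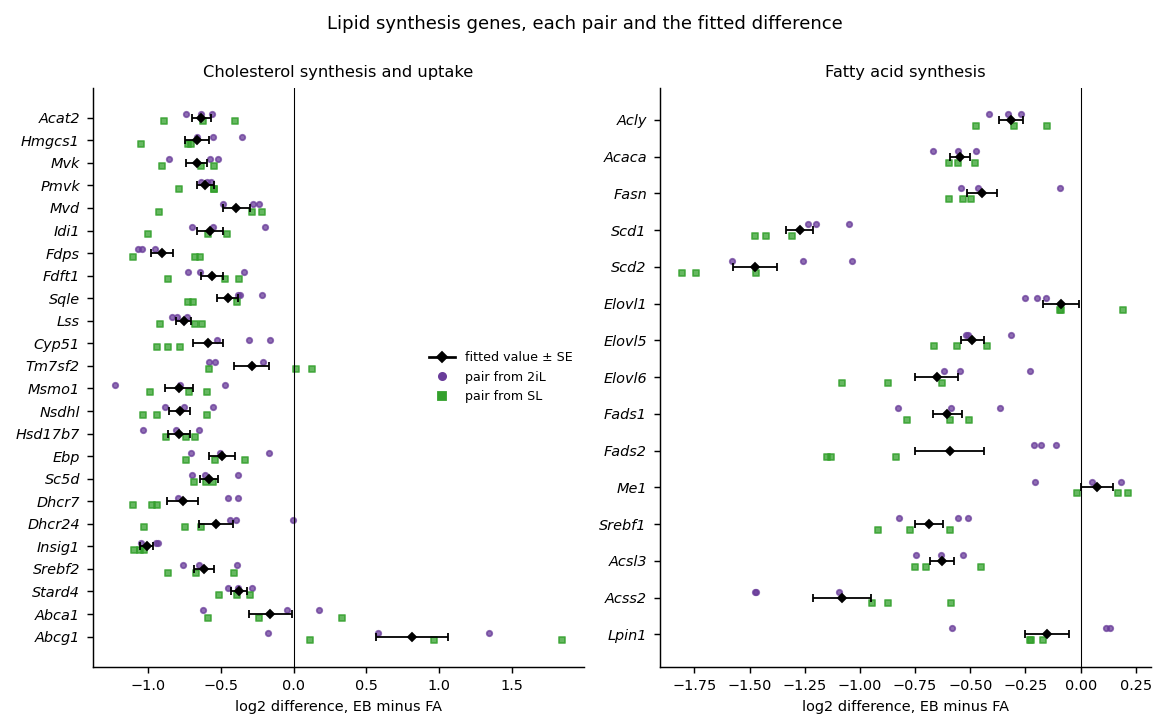
Log2 difference of EB minus FA for tested genes of the cholesterol (24 of 27) and fatty acid (15) lists, with the fitted value and its SE as black diamonds and each pair as a point (circles from 2iL, squares from SL). Most points lie left of 0, and Abcg1 at 0.81 ± 0.25 is the called gene to the right.

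The Id genes, which BMP signalling switches on, were higher in EBs. Id1 (ENSMUSG00000042745, GRCm38 chromosome 2, 152736251 to 152737410, positive strand), an inhibitor of basic helix-loop-helix factors and a direct BMP target, stood at 26.7, 54.7 and 39 CPM in EBs from 2iL and at 44.3, 41.2 and 25.5 CPM in EBs from SL. In FA cells it stood at 4.0, 1.01 and 1.62 CPM and at 5.22, 3.89 and 3.66 CPM. No FA library reached the lowest EB library, and the log2 difference was 3.6 ± 0.35 (SE, adjusted p = 4.52e-04). Day 0 levels differed by medium, at 2.06 to 2.53 CPM in the 3 day 0 libraries in 2iL and 42.4 CPM in that in SL. In cells from SL the EB level was thus near that of day 0 at days 1 and 1.5 and below it at day 2. The FA level from SL was below that of day 0 at each day, whereas in cells from 2iL the EB level was above that of day 0. Id3 stood at 21, 24.2 and 23.4 CPM in EBs from 2iL and at 11.8, 4.75 and 1.74 CPM in FA cells from 2iL, and differed by 2.21 ± 0.34 (SE, adjusted p = 0.00277). Id2 differed by 1.78 ± 0.28 (SE, adjusted p = 0.00324) and the homeobox gene Msx1, another BMP target, by 1.9 ± 0.33 (SE, adjusted p = 0.00453), both without overlap. The ligand gene Bmp4 was at 2.46 to 10.5 CPM in EBs and 0.731 to 5.97 CPM in FA cells and differed by 1.0 ± 0.17 (SE, adjusted p = 0.00464). Of 19 tested members of the BMP list 5 were higher and 3 lower in EBs, beside 15.3% and 12.9% of all genes tested. The 3 lower were the effector gene Smad5 (-0.45 ± 0.08), the inhibitor gene Smad6 (-0.61 ± 0.11) and Tbx3 (-0.96 ± 0.24). The list median was 0.15. The counts in SL pairs alone were 5 higher and 1 lower. Without the block 4 passed the test, each higher, and the days summed gave 3 higher and 1 lower.

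Formative epiblast genes were higher in EBs. Of 23 tested members 12 passed the test, each higher in EBs, where 15.3% of all genes tested were called higher. The list median was 0.65. Dnmt3b was at 1027, 1735 and 2634 CPM in EBs from 2iL and 1011, 1793 and 2553 CPM in EBs from SL. FA cells held 320.4, 535 and 936 CPM and 467, 766 and 997 CPM, so their highest level, at day 2, was below the lowest of EBs, at day 1 (1.44 ± 0.08 SE, adjusted p = 8.15e-05). Otx2 ranged over 61.1 to 116 CPM (median 100.1) in EBs and 19.7 to 41.9 CPM (median 28.8) in FA cells, without overlap (1.72 ± 0.17 SE, adjusted p = 4.71e-04). Fgf5 was at 11.9, 31.8 and 54 CPM in EBs from SL and 7.91, 15.4 and 24.3 CPM in FA cells from SL, and pairs from 2iL were further apart (1.72 ± 0.31 SE, adjusted p = 0.00546). Grhl2, an epithelial factor, differed by 1.49 ± 0.12 (SE, adjusted p = 2.31e-04), Pou3f1 (Oct6) by 1.09 ± 0.16 (SE, adjusted p = 0.00252) and the surface protein gene Cd24a by 1.18 ± 0.06 (SE, adjusted p = 4.71e-05). The other members called were Foxd3, Sall2, Sox11, Pim2, Car4 and Krt18, at 0.65 ± 0.09 (Sall2) to 1.1 ± 0.18 (Krt18). Among pairs from SL alone 11 were higher and 2 lower, and without the medium-day block 4 passed the test, each higher. The days summed gave 11, each higher.

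Naive pluripotency genes were mixed, with 3 of 23 tested members higher and 7 lower in EBs. Over all genes tested 15.3% were called higher and 12.9% lower, and the list median was -0.09. Gbx2 had the largest difference. It stood at 39.9, 19.8 and 10.8 CPM in EBs from 2iL and at 27.7, 13.7 and 5.28 CPM in EBs from SL. FA cells held 37.8, 45 and 76.7 CPM from 2iL and 45.4, 72 and 94.7 CPM from SL (-1.81 ± 0.51 SE, adjusted p = 0.0290). The day 1 levels were close in pairs from 2iL, and by day 2 the EB library was the lower in both media. The LIF target Socs3 differed by -1.4 ± 0.23 (SE, adjusted p = 0.00358), the dioxygenase gene Tet2 by -1.11 ± 0.26 (SE, adjusted p = 0.0141), and Tbx3, Jam2, Klf5 and Dppa2 were also lower. Fgf4 ranged over 178 to 222 CPM (median 189) in EBs and 68 to 164 CPM (median 102) in FA cells (0.88 ± 0.12 SE, adjusted p = 0.00200), and Nr5a2 and Dppa4 were the other 2 members higher in EBs. Pairs from SL alone gave 6 higher and 5 lower, and pairs from 2iL alone, where 8.56% of 14377 genes were called higher and 6.93% lower (15.5% in all), gave 1 higher and 7 lower. The difference between these counts was not tested. Of the 10 general pluripotency genes, Sox2 (0.63 ± 0.12 SE, adjusted p = 0.00658) and Sall4 (0.21 ± 0.07) were higher and L1td1 (-0.25 ± 0.08) was lower in EBs, and Pou5f1 gave 0.05 ± 0.05 (SE, adjusted p = 0.463).

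FA medium supplies ActivinA, and genes of this pathway were called in both directions. Of 24 tested genes of the Nodal and Activin list 4 were higher and 5 lower in EBs, where 15.3% and 12.9% of all genes tested were called higher and lower, with a median near that of all genes tested. Pairs from SL alone gave 3 higher and 6 lower, and 1 higher and 1 lower passed both without the block and with the days summed. Lefty1, a secreted Nodal inhibitor and direct target, was at 37.6, 86.3 and 156 CPM in EBs from 2iL and 37.8, 112 and 284 CPM in FA cells from 2iL. From SL it was at 28.9, 54.5 and 75.5 CPM in EBs and 75.9, 193 and 377 CPM in FA cells. No EB library was above its FA partner, and the gap was widest in pairs from SL (-1.12 ± 0.28 (SE, adjusted p = 0.0187) over all pairs, -1.87 ± 0.16 (adjusted p = 0.00198) in pairs from SL alone), and in N2B27 it was at 3.44 to 67.9 CPM. Inhbb, a subunit of activin, was lower in EBs (-1.6 ± 0.4 SE, adjusted p = 0.0197), as were the target Pmepa1 (-0.46 ± 0.14), Smad2 (-0.41 ± 0.07) and the receptor gene Acvr2a (-0.29 ± 0.08). Fst, the activin antagonist follistatin, was higher, at 5.57 to 24.5 CPM against 1.2 to 5.65 CPM (1.61 ± 0.36 SE, adjusted p = 0.0119), with Skil (0.65 ± 0.12), Foxh1 (0.55 ± 0.08) and Acvr2b (0.28 ± 0.08). The ligand gene Nodal gave 0.12 ± 0.13 (SE, adjusted p = 0.532).

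Fgf2 is the other factor of FA medium. Of 25 tested genes of Fgf signalling and ERK feedback, 5 were higher and 5 lower in EBs. Over all genes tested 15.3% were called higher and 12.9% lower. The Fgf ligand genes Fgf4, Fgf5 and Fgf15 (1.04 ± 0.22 SE, adjusted p = 0.0103) were higher, with the target Etv5 (0.53 ± 0.08) and the feedback inhibitor Spry1 (0.73 ± 0.12). Lower in EBs were Spred1, an inhibitor of Ras signalling that ranged over 71.1 to 140.3 CPM in EBs and 143 to 199 CPM in FA cells (-0.8 ± 0.18 SE, adjusted p = 0.0124), Spred2 (-0.42 ± 0.06), the ERK phosphatase Dusp5 (-0.61 ± 0.18), the target Etv4 (-0.58 ± 0.15) and the receptor Fgfr1 (-0.26 ± 0.07). SL pairs alone gave 7 higher and 4 lower.

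Hypoxia and glycolysis genes were higher in EBs. Of 30 tested members 13 were higher and 1 lower, beside 15.3% and 12.9% of all genes tested. The list median was 0.29. Ldha, lactate dehydrogenase, was at 840.5, 1411 and 1666 CPM in EBs from 2iL and 835, 1179.6 and 1359.7 CPM in EBs from SL. FA cells held 173, 292 and 552 CPM and 453, 678 and 819 CPM. Every EB library was above every FA library (1.43 ± 0.23 SE, adjusted p = 0.00354), and the pairs from SL alone gave 0.81 ± 0.07 (adjusted p = 0.00198). Egln3, a prolyl hydroxylase that HIF induces, ranged over 27.3 to 44.5 CPM (median 34.1) in EBs and 10.3 to 19.6 CPM (median 13.1) in FA cells, without overlap (1.4 ± 0.14 SE, adjusted p = 4.57e-04). Ndrg1 differed by 1.51 ± 0.24 (SE, adjusted p = 0.00313) and Bnip3 by 0.98 ± 0.13, and the glycolytic enzymes Pgk1, Pfkl, Pfkp, Eno1, Aldoa and Gpi1 by 0.26 ± 0.05 (Gpi1) to 0.92 ± 0.12 (Pfkl). Car9, a carbonic anhydrase that hypoxia induces strongly, was the member lower in EBs, at 0.107 to 1.25 CPM against 0.864 to 2.46 CPM (-1.4 ± 0.4 SE, adjusted p = 0.0300). Pairs from SL gave 10 higher and 1 lower, and without the block 6 passed the test, each higher. The days summed gave 7, each higher.

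ATF4 targets and genes of amino acid supply were lower in EBs, with 13 of 24 tested members lower and 2 higher. Over all genes tested 12.9% were called lower and 15.3% higher, and the list median was -0.37. Atf5, a factor of the stress response, ranged over 4.34 to 11.1 CPM (median 6.13) in EBs and 12.7 to 19 CPM (median 14.1) in FA cells, without overlap (-1.17 ± 0.14 SE, adjusted p = 0.00112). Psat1, of serine synthesis, differed by -0.6 ± 0.08 (SE, adjusted p = 0.00136), the mitochondrial folate enzyme gene Aldh1l2 by -1.46 ± 0.2 (SE, adjusted p = 0.00192), Chac1 by -1.26 ± 0.31, Asns, asparagine synthetase, by -0.43 ± 0.11 and Trib3 by -0.59 ± 0.16. The amino acid transporter gene Slc7a3 (0.59 ± 0.1) and Sesn2 (0.31 ± 0.07) were higher. From SL alone 9 were lower and 1 higher. Without the block 3 passed the test, each lower, and the days summed gave 1 higher and 5 lower.

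Cell adhesion genes were called in both directions. Of 30 tested integrins, cadherins and junction genes 8 were higher and 5 lower in EBs, beside 15.3% and 12.9% of all genes tested. The higher set held 5 tight junction genes. Cldn6 was at 57, 96 and 189 CPM in EBs from SL and 30.8, 41.9 and 63.8 CPM in FA cells from SL (1.96 ± 0.33 SE, adjusted p = 0.00419), Cldn4 ranged over 27.2 to 33.4 CPM in EBs and 6.55 to 12.1 CPM in FA cells (1.58 ± 0.11 SE, adjusted p = 1.44e-04), and Cldn7, Cldn3 and Tjp3 were higher too. Epcam (0.53 ± 0.11), the cadherin gene Cdh3 (0.79 ± 0.25) and Itgb5 (0.32 ± 0.08) completed the higher set. The lower set held 5 integrin genes, Itga5 (-0.53 ± 0.14), Itga9 (-1.1 ± 0.28), Itgav (-0.22 ± 0.07), Itgb3 (-1.13 ± 0.2) and Itgb4 (-0.56 ± 0.17). In pairs from SL 8 were higher and 1 lower. The 5 lower calls were lost without the block, where edgeR called 1 higher and 0 lower, with 4 and 1 at an unadjusted p under 0.05, and also with the days summed, where 4 passed, each higher. Of 22 tested extracellular matrix genes 7 were higher, among them the collagen IV chain Col4a1 (0.63 ± 0.12) and the laminin chain Lama5 (0.54 ± 0.11), and Fbn2 was lower (-1.31 ± 0.37). Pairs from SL alone gave 7 higher and 3 lower of these, and without the block edgeR called 0, with 3 higher and 2 lower at an unadjusted p under 0.05. Targets of SRF and YAP, factors that respond to actin tension, gave 2 higher and 3 lower of 24 tested. Over all genes tested 15.3% were called higher and 12.9% lower. Ctgf, a YAP target, ranged over 12.4 to 24.1 CPM (median 14.7) in EBs and 23.7 to 42.7 CPM (median 34.1) in FA cells (-1.02 ± 0.21 SE, adjusted p = 0.00984).

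**Figure D4:**
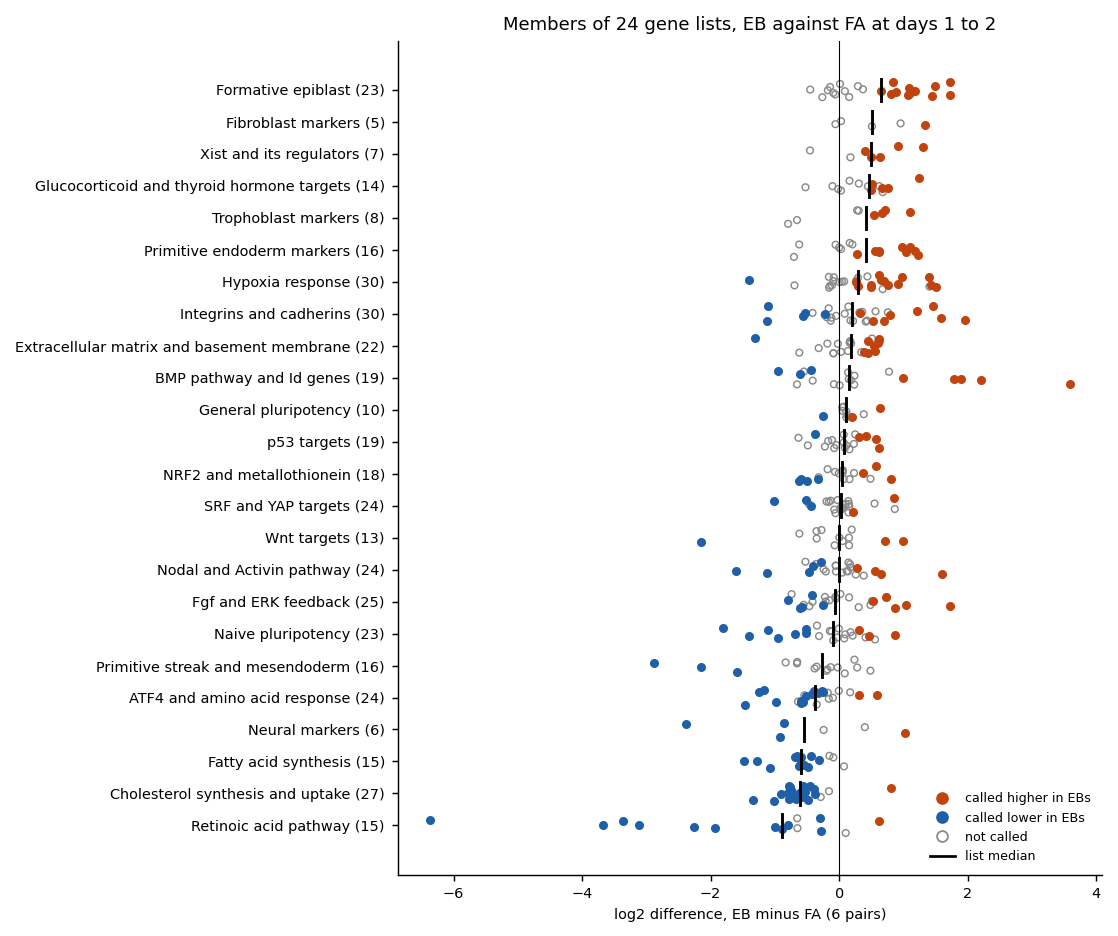
Log2 difference of EB minus FA for every tested member of 24 gene lists (number tested in brackets), with members called higher in EBs in orange, members called lower in blue, members not called as open circles and the list median as a black bar. Lists run from the retinoic acid list, with a median of -0.9, at the bottom to the formative list, with a median of 0.65, at the top.

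Markers of cell types other than epiblast were measured to show what else the cultures held. Over all genes tested 15.3% were called higher and 12.9% lower. Of 16 tested primitive endoderm markers 9 were called higher and 0 lower by edgeR, with 9 and 1 at an unadjusted p under 0.05 and 9 and 0 by DESeq2. Their summed level was 786 to 4768 CPM in EBs and 617 to 2681 CPM in FA cells. Cubn, the endocytic receptor cubilin, was at 1229, 1356 and 1492 CPM in EBs from SL and 632, 597 and 643 CPM in FA cells from SL, and at 3.26, 46.6 and 190.3 CPM and 1.46, 11.3 and 107 CPM in the courses from 2iL (1.23 ± 0.14 SE, adjusted p = 7.90e-04). Cubn levels were further apart between media than between conditions. Hnf4a, an endoderm factor, differed by 1.05 ± 0.22 (SE, adjusted p = 0.0103), while the lineage factor Gata6 did not pass the test (-0.7 ± 0.3 SE, adjusted p = 0.108). Pairs from SL alone also gave 9 higher, and pairs from 2iL alone gave 4 higher and 1 lower. Without the block edgeR called 0, with 0 also at an unadjusted p under 0.05. Neural markers gave 1 higher and 3 lower of 6 tested, with a summed level of 43.7 to 63.6 CPM in EBs and 72.9 to 122 CPM in FA cells. Sox1 was at 5.39, 4.24 and 4.25 CPM in EBs from 2iL and 15.7, 22.5 and 38.8 CPM in FA cells from 2iL, without overlap over all pairs (-2.39 ± 0.29 SE, adjusted p = 0.00107), and Tubb3 (-0.92 ± 0.12) and Pax6 (-0.86 ± 0.13) were lower too. Of 8 tested trophoblast markers 4 passed the test, each higher in EBs, and the list of 15 summed to 57 to 167 CPM in EBs and 33.2 to 101 CPM in FA cells. The defining trophoblast factor Elf5 was at 0 to 0.0305 CPM in EBs, and the fibroblast collagen Col1a1 at 0.152 to 0.454 CPM in EBs and 0.421 to 1.46 CPM in FA cells. Of 5 tested fibroblast markers 1 passed, Thy1 (1.33 ± 0.23), at summed levels of 10.1 to 21.9 CPM in EBs and 7.24 to 15.1 CPM in FA cells. The part of such cells in the results above was not tested.

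The remaining lists are given by their counts, beside 15.3% of all genes tested called higher and 12.9% called lower. Of 16 tested primitive streak genes 3 passed the test, each lower in EBs, which were Nkx1-2 (-2.88 ± 0.41), Cdx1 (-2.15 ± 0.55) and Sp8 (-1.59 ± 0.29). Wnt targets gave 2 higher and 1 lower of 13. Targets of glucocorticoid and thyroid hormone had 5 of 14 tested members called, each higher, with Sgk1 at 0.76 ± 0.12 (SE, adjusted p = 0.00307) and Hif3a at 1.25 ± 0.16 (SE, adjusted p = 0.00142). NRF2 and metallothionein genes gave 3 higher and 4 lower of 18, with the metallothionein Mt1 at 0.8 ± 0.22 (SE, adjusted p = 0.0250) and the glutathione peroxidase Gpx4 at -0.5 ± 0.08 (SE, adjusted p = 0.00287). p53 targets gave 4 higher and 1 lower of 19, and pairs from SL alone called 3, each lower. Of Xist and its regulators 5 of 7 tested were called, each higher in EBs, with Ftx, a non-coding RNA that promotes Xist, at 9.79, 19 and 26.4 CPM in EBs from SL and 5.92, 8.1 and 10.8 CPM in FA cells from SL (1.31 ± 0.15 SE, adjusted p = 8.51e-04). Xist itself was at 2.04, 25.3 and 15.7 CPM in EBs from 2iL and 1.4, 9.94 and 11.2 CPM in FA cells from 2iL (0.64 ± 0.2 SE, adjusted p = 0.0404), and pairs from SL alone gave 0.4 ± 0.27 (adjusted p = 0.317). Over this list pairs from SL alone gave 3 higher, the days summed gave 1 higher, and without the block edgeR called 0, with 2 higher at an unadjusted p under 0.05.

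Levels of the later EB and FA libraries, which were not tested, are given for a few of these genes. At day 3, Id1 was at 18.7 CPM in EBs from 2iL and 8.53 CPM in FA cells from 2iL, and Insig1 was at 96.6 and 337 CPM. Enpp2 at day 3 was at 274 CPM in EBs and 0.921 CPM in FA cells from 2iL, and at 116 and 15.5 CPM from SL. At day 7 from SL, Scd2 was at 985 CPM in EBs and 2116 CPM in FA cells. Enpp2 by then was at 16.3 CPM in EBs and 16.9 CPM in FA cells from SL, and at 5.25 and 16.4 CPM from 2iL. Stra8 was at 0.139 CPM in EBs and 0.557 CPM in FA cells. The order of EB and FA was thus the same as at days 1 to 2 for Id1, Insig1, Scd2 and Stra8 at these points. Enpp2 kept the order at day 3, and at day 7 was close between EBs and FA cells from SL and lower in EBs from 2iL.

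Whether the difference between EBs and FA cells depends on the medium in which the ESCs had been kept was tested as an interaction. Of 13851 genes 227 (1.64%) passed, with 62 (0.448%) having a higher and 165 (1.19%) a lower log2 difference in pairs from SL than in pairs from 2iL. Of the 227 genes, 76 (33.5%) were over 1.5-fold apart in the day 0 library of the FA time course from 2iL, against 5.55% of all genes tested and 5.77% of the genes called between EBs and FA cells. With genes apart at day 0 left out, 75 passed. Some of the 12 largest differences each way between EBs and FA cells were also of genes apart in that day 0 library. They were Enpp2, Kctd12b, Slc9a7, Slc23a1, Cd37, Cntfr, Nt5e, Gfra1 and Dhrs3. Dhrs3, for one, was at 4.12 CPM there against 7.91 and 8.12 CPM in the other 2iL day 0 libraries. Enpp2, Slc9a7, Slc23a1, Cntfr and Gfra1 were at 0 to 0.133 CPM there. That is below 0.199 CPM, where counting error is large, so these genes may be apart by counting error alone. The part of the day 0 values in the difference of the listed genes between EBs and FA cells was not tested. Htra1, a secreted serine protease, was at 28.2, 17.3 and 13.2 CPM in EBs and 15.8, 7.4 and 3.66 CPM in FA cells from SL, and at 23.1, 3.31 and 3.35 CPM and 37, 10.2 and 4.33 CPM from 2iL. It was thus higher in EBs from SL and lower in EBs from 2iL, an interaction of 2.16 ± 0.35 (SE, adjusted p = 0.0296). Stard8, a GTPase-activating protein, gave 1.54 ± 0.24 (SE, adjusted p = 0.0281), Rab11fip5, a Rab11 effector of endosome recycling, 1.66 ± 0.25 (SE, adjusted p = 0.0280) and Furin, the protease that matures Nodal and BMP precursors, 1.28 ± 0.22 (SE, adjusted p = 0.0333). Tex13 gave 1.96 ± 0.38 (SE, adjusted p = 0.0486). In pairs from SL alone and from 2iL alone, Stard8 differed by 1.16 and -0.35, Rab11fip5 by 0.52 and -1.13 and Furin by 0.57 and -0.7. Tex13 was lower in EBs in both, at -0.61 from SL and -2.57 from 2iL. The Stard8 value from 2iL and the Rab11fip5 and Tex13 values from SL did not pass the test. On the lower side were 5 related genes, BC061212, Gm16522, Gm7978, Gm10424 and Gm7982, at -5.32 to -4.61. They may share reads as near-identical copies, so their separate values are uncertain. In SL pairs BC061212 was at 13.5, 9.11 and 5.04 CPM in EBs and 27.2, 38.7 and 36.1 CPM in FA cells, and in 2iL pairs it was at 1.58, 1.48 and 3.73 CPM and 0.127, 0 and 0.541 CPM. It was thus lower in EBs from SL and higher in EBs from 2iL. These 5 genes and Tex13 were among the genes apart in the day 0 library of the FA time course from 2iL, where BC061212 was at 0.266 CPM against 1.96 and 0.672 CPM in the other 2iL day 0 libraries, and Tex13 was at 28.7 CPM against 11.1 and 5.85 CPM. The part of this in their interaction was not tested. Of the genes described for the EB and FA difference, 7 are named here because they also passed this test, and in each the difference was smaller or more negative in pairs from SL. They were Lad1 (-2.19 ± 0.22 SE, adjusted p = 0.00850), Cldn6 (-1.81 ± 0.3 SE, adjusted p = 0.0321), Lefty1 (-1.42 ± 0.26 SE, adjusted p = 0.0438), Ldha (-1.23 ± 0.18 SE, adjusted p = 0.0258), Fgf15 (-1.2 ± 0.16 SE, adjusted p = 0.0238), Epcam (-0.6 ± 0.1 SE, adjusted p = 0.0324) and Eno1 (-0.59 ± 0.11 SE, adjusted p = 0.0484). Leaving out the 2iL pair of day 1.5, the SL pair of day 1.5 or the SL pair of day 2 left 5, 3 and 16 genes, and leaving out the 2iL pair of day 1 gave 386.

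Whether the difference changes between days 1 and 2 was tested as a slope. By edgeR, 12 genes (0.0866%) passed, 3 with a rising (0.0217%) and 9 with a falling (0.065%) log2 difference, and 1866 had an unadjusted p under 0.05. DESeq2 called 219, with 97 rising and 122 falling. Dusp9, an ERK phosphatase, was lower in EBs at day 1 and higher at day 2, with pair differences of -0.83, 0.12 and 0.57 from 2iL and -0.79, 0.01 and 0.42 from SL on the log2 scale at days 1, 1.5 and 2. Its slope was 1.3 ± 0.14 (SE, adjusted p = 0.0431) per day. Foxo3 followed the same course (1.0 ± 0.12 SE, adjusted p = 0.0431), and the other rising gene was Ephx2, an epoxide hydrolase below the level set for naming, which is given here after its values were seen. Sox1 moved further apart with day, with pair differences of -1.52, -2.38 and -3.16 from 2iL and -1.19, -2.28 and -3.44 from SL (-1.93 ± 0.22 SE, adjusted p = 0.0431). Ebf1 (-2.63 ± 0.23 SE, adjusted p = 0.0411), Iffo2 (-2.28 ± 0.26 SE, adjusted p = 0.0431), Ssbp4 (-1.44 ± 0.14 SE, adjusted p = 0.0411) and Cnpy1 (-1.4 ± 0.17 SE, adjusted p = 0.0431) also fell in EBs relative to FA cells, as did Spred1 (-1.22 ± 0.15 SE, adjusted p = 0.0431).

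**Figure D5:**
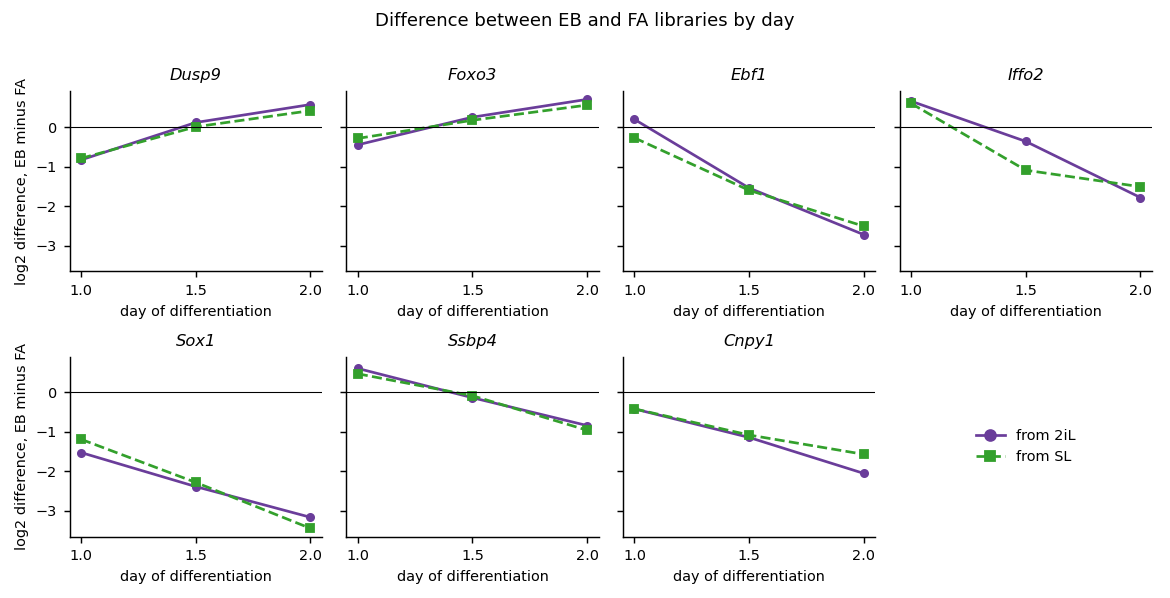
Log2 difference of EB minus FA in CPM (pseudocount 0.1) against day for the 7 genes named for their change with day, each point being 1 pair (circles from 2iL, squares and dashed lines from SL). Dusp9 and Foxo3 cross from below to above 0, and Sox1 ends at -3.16 from 2iL and -3.44 from SL.

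The make-up of the libraries was compared by the share of counts in 4 gene classes, with an exact two-sided sign-flip permutation test over the 6 pairs, whose smallest p is 0.0312. Mitochondrial transcripts took 2.69% ± 0.654 (SD, n = 6) of counts in EBs and 2.37% ± 0.733 (SD, n = 6) in FA cells (exact permutation p = 0.156, adjusted over 4 classes 0.312). Cytosolic ribosomal protein genes took 5.41% ± 0.488 and 5.29% ± 0.238 (exact p = 0.75), replication-dependent histone genes 1.91% ± 0.198 and 1.71% ± 0.324 (exact p = 0.125), and the 10 most abundant genes 10.3% ± 1.87 and 10.2% ± 1.89 (exact p = 0.969), each as SD with n = 6. No difference in these shares passed the test.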

How the data were processed

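RNA from E14tg2a cells was depleted of ribosomal RNA and made into strand-specific libraries. The authors trimmed the reads with TrimGalore, aligned them with TopHat2 to GRCm38 (mm10) using Ensembl models and counted them with featureCounts, and per the submitters' notes DESeq2 was also used. The deposited values used here are raw counts per gene, with 1 library per condition, medium and day.

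Counts of 12 libraries were fitted with edgeR 4.0.16 in R 4.3.3 (quasi-likelihood F test, TMM factors, filterByExpr, Benjamini-Hochberg adjustment, threshold 0.05), with the 6 medium and day combinations as a block. Log2 values are EB minus FA, with SE from the F statistic, and counts of list members called are over all genes tested. A further pair of edgeR models tested the condition by medium interaction and the condition by day slope. Matching medium and day comes from the labels, and the deviations of EB and FA libraries from their group means correlated at 0.577 to 0.760 within a pair, against a mean of 0.295 for other days of the same medium and -0.415 for the other medium. Shares of counts were tested with an exact sign-flip permutation. CPM used TMM factors over all 45 libraries, and pair differences a pseudocount of 0.1 CPM.

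Total counts per library were 15101710 to 39253633, and no 2 libraries were copies. The members, gene lists and tests were chosen with earlier results of these data known. Named genes were the 12 largest each way among genes called, with the same direction in all 6 pairs and at least 10 CPM in the higher condition, the 5 largest each way in the other models with the same minimum, and list members. Of 35372 genes 34599 (97.8%) were found in GENCODE M21 for coordinates. Retinoic acid repeats in promoters were searched for after the values were seen, with Python 3.11.15. Alternatives were DESeq2 1.42.0, RLE factors, no filter, the N2B27 libraries added, each medium alone, no block, each pair left out, days summed and thinning to the shallowest library. Pairs from SL at days 1 and 1.5 alone, and genes apart at day 0 left out, were added after seeing the data. Values of some genes are not reported here. The fits were tested on simulated counts first.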

Additional observations from a re-analysis of the deposited data

Results flagged for a closer look

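Single libraries far from the other 5 of their group, by Dixon's test, were looked for in 302 groups of values. Chance alone would flag about 1 in 20 groups of replicates. Each group here spans 3 days and 2 starting media, so its libraries are not replicates. A value set apart by its day or medium cannot be told from an odd library. 12 values stood apart. Slc9a7 was at 0.571 CPM in the FA library from 2iL at day 1, where the other 5 FA libraries held 1.33 to 1.76 CPM. For Cd37 the EB library from 2iL at day 1 held 3.93 CPM and the others 0.283 to 1.15 CPM. The FA library from SL at day 2 held 5.85 CPM of Halr1, and the others 11.4 to 14 CPM. Fst was at 24.5 CPM in the EB library from 2iL at day 2, where the other 5 EB libraries held 5.57 to 12.3 CPM. For Smad6 the EB library from 2iL at day 1 held 7.01 CPM and the others 2.28 to 4.01 CPM. The EB library from 2iL at day 1 held 14.4 CPM of Acss2, and the others 5.36 to 8.54 CPM. Cd24a was at 104 CPM in the EB library from SL at day 2, where the other 5 EB libraries held 27 to 52.3 CPM. For Cd24a the FA library from SL at day 2 held 50.4 CPM and the others 10.9 to 23.1 CPM. The FA library from SL at day 1 held 1.41 CPM of Cdx1, and the others 0.633 to 0.842 CPM. Hif3a was at 35.9 CPM in the EB library from 2iL at day 1, where the other 5 EB libraries held 10.4 to 17.9 CPM. For Hoxb1 the EB library from 2iL at day 1.5 held 0.842 CPM and the others 0.0914 to 0.361 CPM. The EB library from SL at day 2 held 4.27 CPM of Tgm2, and the others 0.914 to 1.69 CPM.

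The difference between EBs and FA cells itself differed between starting media, by the edgeR interaction test. The log2 difference was more positive in pairs from SL for Htra1 (2.16), Tex13 (1.96), Rab11fip5 (1.66), Stard8 (1.54) and Furin (1.28). It was smaller or more negative in pairs from SL for BC061212 (-5.32), Gm16522 (-5.25), Gm7978 (-4.96), Gm10424 (-4.8), Gm7982 (-4.61), Lad1 (-2.19), Lefty1 (-1.42), Fgf15 (-1.2), Ldha (-1.23), Eno1 (-0.59), Epcam (-0.598) and Cldn6 (-1.81). The difference changed with day, in log2 per day, for Dusp9 (1.3), Foxo3 (1.0), Ebf1 (-2.63), Iffo2 (-2.28), Sox1 (-1.93), Ssbp4 (-1.44), Cnpy1 (-1.4) and Spred1 (-1.22).

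At day 0, which is outside the comparison, 6 genes were over 4-fold below both other 2iL libraries in the library of the FA time course. They were AC156953.1, Rn7s6, the histone gene Hist1h2ba, Erdr1, and the Gm10036 and Gm18025 loci. AC156953.1 and Rn7s6 had equal levels in each day 0 library, so they may count the same reads. Gm10036 was at 0.599 CPM in the FA day 0 library and at 12.8 and 20.8 CPM in the other 2iL libraries. It stayed at 0.57 to 0.902 CPM in the FA libraries from 2iL at days 1 to 2. Tex13, BC061212, Gm16522, Gm7978, Gm10424 and Gm7982 were over 1.5-fold apart in the day 0 library of the FA time course. The part of this in their interaction was not tested. Enpp2, Kctd12b, Slc9a7, Slc23a1, Cd37, Cntfr, Nt5e, Gfra1 and Dhrs3 were over 1.5-fold apart there too. Of these, Enpp2, Slc9a7, Slc23a1, Cntfr and Gfra1 were at 0 to 0.133 CPM in that library, where counting error is large. The part of the day 0 values in the difference of the listed genes between EBs and FA cells was not tested.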

How the results depend on the processing

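Of 147 genes named for the difference between EBs and FA cells, in 2478 comparisons with an alternative, 2099 kept their direction and side of the threshold, 374 kept the direction but lost the call, 2 gained it and 3 changed direction. The 3 concerned genes that were not called, which were Nodal in pairs from SL (-0.22) and in SL pairs of days 1 and 1.5 (-0.18) and Pou5f1 with days summed (-0.0042). The median of the primitive endoderm list changed sign in pairs from 2iL (-0.00079). The count of 3899 genes became 994 without the replicate block, 2228 in pairs from 2iL, 1766 in SL pairs of days 1 and 1.5 and 627 with days summed per time course, where fewer libraries or residual degrees of freedom remained in the latter 3. Without the replicate block 86 of the 147 genes lost the call. Leaving out each pair gave 2689 to 3692 genes. Thinned to the shallowest library, 3678 of 13688 genes were called. There 141 of the named genes kept their direction and side of the threshold and 4 lost the call. With genes apart at day 0 left out, 3816 of 13089 genes were called. The 227 genes of the medium test became 488 with DESeq2, 472 with no filter on low counts, 836 with the N2B27 libraries added and 75 without genes apart at day 0, and leaving out each pair gave 3 to 386. With medium and day as additive terms and no replicate block 268 were called. The 12 genes of the day test became 219 with DESeq2, 45 with no filter, 271 with the N2B27 libraries added, 752 in pairs from 2iL, 886 in pairs from SL and 38 with no replicate block. The cause of these shifts was otherwise not tested. Leaving out each pair moved the difference in share to -0.059 to 0.184 percentage points for ribosomal protein genes, -0.491 to 0.4995 for the 10 most abundant genes, 0.235 to 0.513 for mitochondrial transcripts and 0.164 to 0.241 for histone genes, and with the 10 most abundant genes left out the next 10 differed by 0.328 points (exact permutation p = 0.0312, the smallest possible). Values below 0.199 CPM rest on under 3 reads in the shallowest library.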
